A study of Homo sapiens with 5 samples.

Results

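MIAPaCa2 cells that express α2 integrin were grown either on collagenI (MP2-α2/CI) or on standard tissue culture plastic (MP2-α2/TC), and the RNA of each population was read on 1 Affymetrix array. The comparison asks what differs in transcript levels between these populations. They share construct and drug and differ in substrate and, by the study's account, in α2 level. It uses 2 of the 5 arrays of the series. Every difference is the log2 level in MP2-α2/CI minus that in MP2-α2/TC cells, so a positive value is higher on collagenI and a value of 1 is a 2-fold difference. Control probe sets were left out, and a probe set was counted as measured when it lay above background on either array, which held for 29810 of 54613 probe sets, for 12681 named genes. Differences of at least 1.5-fold were counted, with attention to genes in which several probe sets agreed. With 1 array a side no value has an error and no test was run, so that no difference is checked by replicates and all of the following describes these arrays.

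MIAPaCa2 is an established line of poorly differentiated pancreatic ductal adenocarcinoma (PDAC) that lacks the α1 and α2 integrins. Both populations carried the human α2 coding sequence under a cytomegalovirus promoter with zeocin selection, and were heterogeneous stable transfectants that came from 1 panning on collagenI. MP2-α2/CI cells were then kept on plates coated with 25 μg/mL collagenI and MP2-α2/TC cells on plastic, both under the drug and harvested below confluence. By the study's account, MP2-α2/CI cells also had more α2 than MP2-α2/TC cells, at the surface, in transcript and in total protein. Substrate therefore cannot be told apart from α2 level or from separate passage of the populations. The MP2-mock array had the same minimum as the MP2-α2/CI and MP2-α2/TC arrays and was taken as normalized with them. MP2-mock cells, kept under drug selection without α2, are given as a reference level. Their substrate is not given in the labels. The arrays of MP2-α2Δ cells (α2 without its cytoplasmic domain, on collagenI, under zeocin) and of MP2-α9α2 cells (α9 with the α2 cytoplasmic domain, on tenascin FNIII coated at 10 μg/mL, under G418) had another minimum, were taken as normalized apart, and are printed side by side only.

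Integrin α2 pairs with β1 to form the main receptor for fibrillar collagen on epithelial cells. Binding to collagenI clusters the receptor, recruits focal adhesion kinases and actin linkers, and can alter the output of ERK, YAP/TEAD, SRF and Notch signalling. In the pancreas, collagenI is scarce around normal ducts and abundant in the stroma of PDAC.

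RNA of the target itself cannot check the labels here. Both ITGA2 probe sets lay at the minimum of 2.24 in mock-selected cells as well as in both α2 populations, and by the study's account the transgene lacks the sequence these probes read, so the direction of every difference rests on the labels. In MP2-α2Δ cells, taken as normalized apart, they read 3.28 and 7.28, and ITGA1 read up to 6.60. The study states that its arrays showed no α2 expression in any of the cells. For the kallikreins described below, the direction on the arrays as labelled is opposite to the one the study gives from RT-PCR, where transcript was higher on collagenI than on plastic. The study drew KLK5, KLK6 and KLK7 from its array profiling, and its Discussion describes the expression changes after stable α2 expression as stronger on collagen. The cause of the opposite direction was not tested, and every direction given here is that of the labelled arrays. Background floors, set from odorant receptor probe sets, were 2.25 on plastic, with 29721 probe sets above it, and 2.27 on collagenI, with 28665. Of 29810 measured probe sets, 52.0% had identical values on both arrays within 1e-06. This share ran from 84.7% at mean levels of 2 to 3 to 25.3% at levels of 10 and over. Among 18444 probe sets over 5 on either array it was 35.3%. The sources do not give the cause of these identical values, and it was not tested. Identical values and medians of 0 are therefore not read here as measured equality. The median difference was 0 and the SD across probe sets was 0.132. Hybridization spikes differed by -0.0385 to 0.0868. Poly-A spikes, added to the RNA before labelling, had a median difference of 0.113, and 23 of 24 were higher on the MP2-α2/CI array, by up to 0.351. Their part in the results was not tested.

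None of the measured markers listed for the cell types of the pancreas was 1.5-fold apart between the arrays. Keratin genes of simple epithelium, KRT8 (14.18 on both arrays) and KRT18 (15.18 and 15.22), and the duct transcription factor SOX9 (11.84 and 11.89) were measured, whereas the duct markers KRT7, EPCAM and CFTR were not above the floor. COL1A2, a chain of collagenI, read 12.18 on plastic and 12.01 on collagenI, and the stromal markers COL3A1, DCN and LUM were not above the floor. Endothelial and blood cell lists had 4 of 9 and 3 of 9 genes measured, none of them 1.5-fold apart. Acinar and endocrine lists had 1 of 9 and 4 of 10 genes measured, with differences from -0.208 to 0.

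The promoters of 6 genes whose lower levels on collagenI are described next are shown for reference, because KLK5, KLK6 and KLK7 are neighbours on chromosome 19, AKR1C1 and AKR1C2 are near copies on chromosome 10, and CCN2 is a standard YAP/TEAD target. Each holds 300 bases around the annotated start of the gene, 5′ to 3′ on the strand of the gene, from RefSeq on GRCh38.p14: KLK5 at chr19:50952989-50953288, KLK6 at chr19:50969542-50969841, KLK7 at chr19:50983868-50984167, AKR1C2 at chr10:5003808-5004107 and CCN2 at chr6:131951323-131951622 on the minus strand, and AKR1C1 at chr10:4963165-4963464 on the plus strand. Capitals mark the TEAD motif CATTCC, read on either strand, in KLK5 and CCN2. In AKR1C1 and AKR1C2 they mark the letters TGANNNNGC, read on either strand. These letters are a loose form of the antioxidant response element with no fixed base after TGA, so a match need not be such an element. Other matches were left in lower case.
KLK5: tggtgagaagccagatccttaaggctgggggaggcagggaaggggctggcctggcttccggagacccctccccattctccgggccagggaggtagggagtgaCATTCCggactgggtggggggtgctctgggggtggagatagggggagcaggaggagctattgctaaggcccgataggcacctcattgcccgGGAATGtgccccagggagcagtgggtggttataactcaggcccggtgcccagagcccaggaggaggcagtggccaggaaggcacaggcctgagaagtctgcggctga
KLK6: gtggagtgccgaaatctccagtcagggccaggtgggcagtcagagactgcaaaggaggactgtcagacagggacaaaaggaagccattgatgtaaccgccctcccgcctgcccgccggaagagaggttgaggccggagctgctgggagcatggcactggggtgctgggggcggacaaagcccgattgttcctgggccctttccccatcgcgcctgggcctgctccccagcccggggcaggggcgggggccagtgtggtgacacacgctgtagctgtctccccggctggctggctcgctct
KLK7: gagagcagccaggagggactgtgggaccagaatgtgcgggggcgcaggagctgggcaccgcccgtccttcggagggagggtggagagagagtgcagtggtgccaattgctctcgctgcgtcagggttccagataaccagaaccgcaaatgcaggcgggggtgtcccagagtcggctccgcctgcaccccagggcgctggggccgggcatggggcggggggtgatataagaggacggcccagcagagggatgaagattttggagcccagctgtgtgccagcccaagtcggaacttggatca
AKR1C1: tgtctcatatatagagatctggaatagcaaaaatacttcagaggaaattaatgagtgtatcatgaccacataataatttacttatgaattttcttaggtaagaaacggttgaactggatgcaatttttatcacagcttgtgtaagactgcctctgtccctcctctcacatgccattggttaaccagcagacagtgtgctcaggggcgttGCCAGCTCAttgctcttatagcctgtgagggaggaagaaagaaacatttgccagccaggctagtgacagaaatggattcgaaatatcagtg
AKR1C2: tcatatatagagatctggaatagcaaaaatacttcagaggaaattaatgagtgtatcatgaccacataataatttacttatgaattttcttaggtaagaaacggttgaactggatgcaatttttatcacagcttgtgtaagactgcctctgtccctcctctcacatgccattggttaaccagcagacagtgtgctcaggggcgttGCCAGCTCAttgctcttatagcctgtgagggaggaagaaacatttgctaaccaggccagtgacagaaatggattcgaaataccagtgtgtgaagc
CCN2: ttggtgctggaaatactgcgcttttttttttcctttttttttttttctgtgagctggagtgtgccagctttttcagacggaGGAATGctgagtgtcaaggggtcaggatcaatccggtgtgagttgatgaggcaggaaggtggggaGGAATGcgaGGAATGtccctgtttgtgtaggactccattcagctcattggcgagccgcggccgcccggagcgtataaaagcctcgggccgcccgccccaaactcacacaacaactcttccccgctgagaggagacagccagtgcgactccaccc
The AKR1C1 and AKR1C2 promoters were identical at 288 of 308 aligned positions (93.5%). The TEAD letters occurred at 2 places in KLK5 and 3 in CCN2 and in neither KLK6 nor KLK7. They occurred in 14% of 27305 promoters of this length. Of genes with such a promoter, 7 of 47 with a lower probe set held them (14.9%), as did 6 of 43 higher ones (14%). The named genes in all were 60 lower and 59 higher, and those without such a promoter were not read. The loose TGANNNNGC letters occurred in 42.1% of all promoters, 51.1% of the lower genes and 48.8% of the higher genes. AP-1 (TGANTCA, either strand) was found in 7.8%, 2.1% and 7.0%, respectively, and RBPJ, the DNA-binding partner of Notch (TGGGAA, either strand), in 24.3%, 21.3% and 14%. Matches to these motifs can overlap, and the motifs were chosen with results known, and a match is a description of letters only.

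Few measured probe sets were 1.5-fold apart on these arrays, many of whose values were identical for a reason not given. At the 1.5-fold threshold, 87 probe sets (0.292% of those measured) were higher and 82 (0.275%) were lower in MP2-α2/CI cells. At 2-fold, 10 (0.0335%) were higher and 31 (0.104%) were lower, and the lower side also held the larger single values, up to 3.51 against 2.22 on the log2 scale. Measured probe sets were within 1.1-fold of each other in 85.1% of cases, identical values included. The named genes were 59 on the higher side and 60 on the lower side, and 17 of the higher and 5 of the lower probe sets had no symbol. Higher probe sets had a median level of 5.37 and lower ones of 6.39. The share of probe sets 1.5-fold apart was greatest, at 1.248%, at mean levels of 5 to 6, and was 0.241% at levels of 10 and over. Just inside the threshold lay HERC4 (0.59) and EZR (-0.59), and just outside it RASSF8-AS1 (0.58) and NFIA (0.58).

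**Figure D1:**
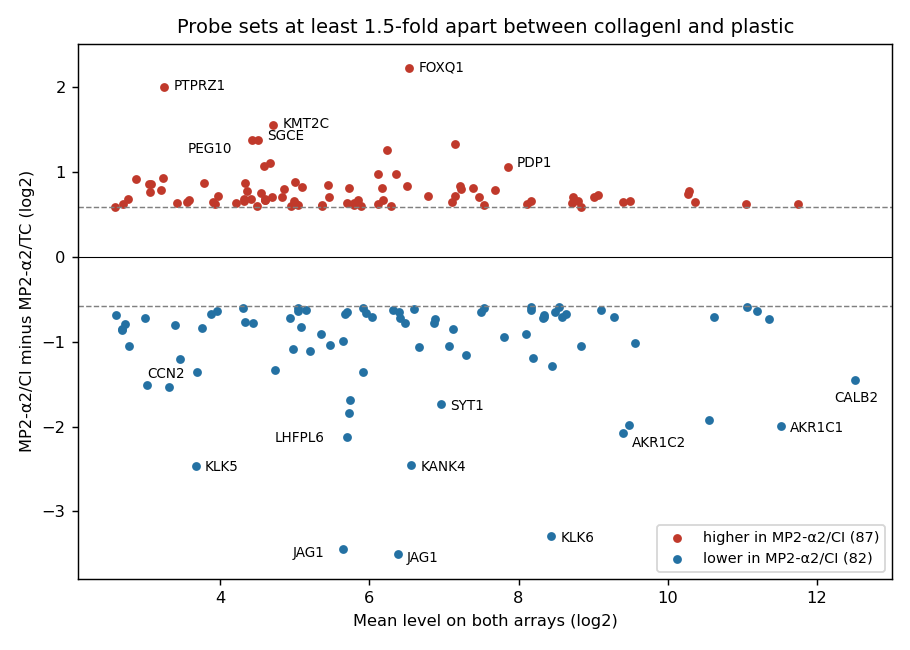
Log2 difference of MP2-α2/CI minus MP2-α2/TC (y axis) against the mean log2 level of both arrays (x axis), 1 point for each of the 87 higher and 82 lower probe sets at least 1.5-fold apart, with dashed lines at that threshold and differences against the floor drawn at their lower bound. The points furthest from 0 are those of JAG1 and KLK6 on the lower side and FOXQ1 on the higher side.

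Other probe sets of the same genes give a second reading of the same RNA on the same arrays. Of 138 further measured probe sets of the higher genes, 8 were also 1.5-fold higher, 84 were higher by less, 35 were identical on both arrays and 11 lay the other way. For the lower genes, 14 of 84 were also 1.5-fold lower, 41 were lower by less, 22 were identical and 7 lay the other way. None lay the other way by 1.5-fold, and the median of these further probe sets was 0.0697 in the direction of the higher genes and 0.0782 in that of the lower genes. Most genes thus rested on 1 probe set. Several probe sets reached 1.5-fold in the same direction in 6 higher and 10 lower genes, of 6505 genes with more than 1 measured probe set.

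JAG1, a membrane ligand of Notch receptors, had the largest decrease between plastic and collagenI. By its brightest probe set the log2 level was 6.75 in MP2-mock cells, 8.13 on plastic and 4.62 on collagenI, an 11.4-fold lower level on collagenI than on plastic. A second probe set read 6.06, 7.37 and 3.92 on the same arrays in the same order, which is kept below wherever 3 levels follow each other, a difference of -3.45. The collagenI array was thus lowest of the 3 by both readings, and the plastic array highest. Nearer the floor, a further probe set was at least 2.85-fold lower (2.30, 3.78 and 2.24), and the last measured one read 2.24, 2.65 and 2.24. The remaining JAG1 probe sets were not measured. MP2-α2Δ cells, also kept on collagenI but taken as normalized apart, read 12.49 by the brightest probe set, and MP2-α9α2 cells 5.30.

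The rest of the Notch pathway differed little. Of 37 measured members of 41 on the arrays, JAG1 and HES4, a transcriptional repressor of the HES family, were 1.5-fold lower by their brightest probe set, none was higher, and the median was 0, as over all 12681 genes. HES4 read 5.06 in MP2-mock cells, 4.83 on plastic and 4.05 on collagenI. HES1, the best known Notch target, read 6.05, 6.77 and 6.05 by 1 probe set, 1.65-fold lower, and 6.94, 7.12 and 6.91 by the brighter one. JAG2, another Notch ligand, read 10.21 on plastic and 10.02 on collagenI. Among receptors, NOTCH1 and NOTCH3 had identical values on both arrays and NOTCH2 differed by 0.11. RBPJ, the transcription factor to which cleaved Notch binds, was identical at 10.43.

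Kallikreins KLK5, KLK6 and KLK7, secreted serine proteases whose genes stand side by side on chromosome 19, were all lower on the array labelled as collagenI, opposite to the study's RT-PCR of the same genes. KLK6, a trypsin-like protease, read 3.36 in MP2-mock cells, 10.08 on plastic and 6.79 on collagenI, and was 9.81-fold lower on collagenI. KLK5, a trypsin-like protease that activates other KLKs, read 2.41, 4.90 and 2.44, a 5.52-fold lower level on collagenI. KLK7, which is chymotrypsin-like, read 2.42, 4.08 and 2.54 by one probe set and 2.86, 3.20 and 2.86 by the other, differences of -1.54 and -0.35. On collagenI, KLK5 and KLK7 differed from MP2-mock by 0.03 and 0.12 and lay close to the floor, whereas KLK6 was 3.43 above MP2-mock. With the floor raised to 4, the difference was -0.90 for KLK5 and -0.08 for KLK7. Of 9 measured kallikrein genes, these 3 were lower. The other 6 differed by at most 0.00418, and 5 of them had identical values. The brightest of these 6 read 7.52 on collagenI, whereas the study states that its arrays showed no other KLKs expressed. MP2-α2Δ cells read 12.28 for KLK6, 10.37 for KLK5 and 3.53 for KLK7 by the first KLK7 probe set. MP2-α9α2 cells read 2.68, 2.71 and 2.49, and both arrays were taken as normalized apart. By the other KLK7 probe set these arrays were close to each other, at 5.66 and 5.23.

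**Figure D2:**
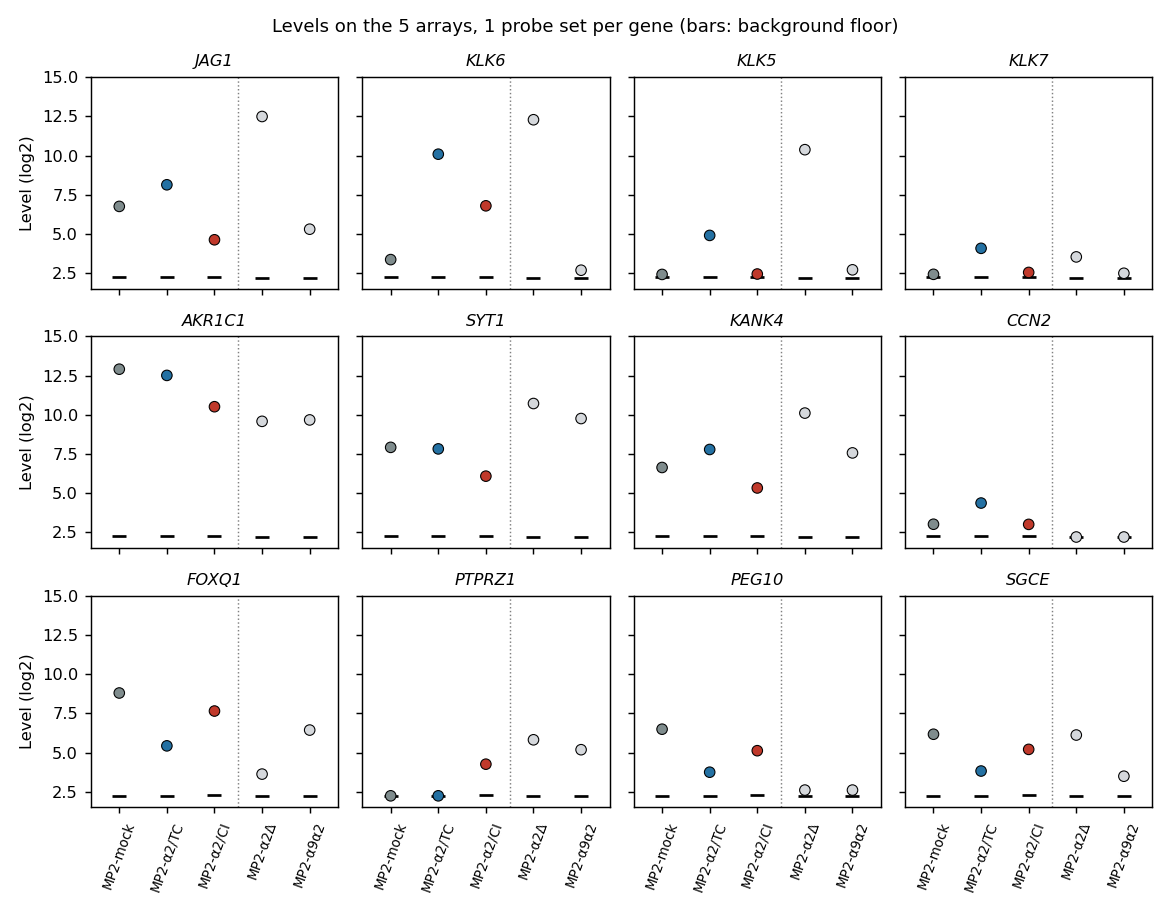
Log2 level of 12 genes, 1 panel and 1 probe set per gene (y axis), against the 5 populations (x axis), with 1 point per array. A short bar marks the floor of each array. A dotted line stands before the arrays of MP2-α2Δ and MP2-α9α2 cells, which were taken as normalized apart. KLK6 lies at 10.08 on plastic and 6.79 on collagenI, AKR1C1 at 12.52 and 10.52, and FOXQ1 at 5.43 and 7.65.

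AKR1C1 and AKR1C2, adjacent genes for aldo-keto reductases that reduce steroids and reactive carbonyls, were lower by about the same amount. AKR1C1 read 12.91 in MP2-mock cells, 12.52 on plastic and 10.52 on collagenI by its brightest probe set, 3.99-fold lower on collagenI, and 11.87, 11.51 and 9.58 by the other measured one. AKR1C2 read 10.83, 10.48 and 8.49 by one probe set and 10.81, 10.44 and 8.36 by the other measured one, with differences of -1.99 and -2.08. By these probe sets the plastic array differed from MP2-mock by -0.40 to -0.35, and the collagenI array stood apart from both. All of these probe sets are of the _x_at class, which can read several transcripts, and the genes are near copies, so that their separate levels are uncertain. Other NRF2 targets, the oxidative stress genes to which this pair belongs, were close on both arrays: of 18 measured, no further gene was 1.5-fold apart and the median was 0.00834. NQO1, a quinone reductase, was identical at 13.89, and GCLM, for glutathione synthesis, read 12.06 and 12.09.

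SYT1, EZR and ARHGDIA also had several lower probe sets. SYT1, a calcium sensor of vesicle release, read 7.93 in MP2-mock cells, 7.83 on plastic and 6.09 on collagenI by its brighter probe set and 6.22, 6.58 and 4.89 by the other, differences of -1.74 and -1.69. EZR, or ezrin, which ties actin to the plasma membrane, was 1.5-fold lower by 4 of 5 probe sets, with the brightest at 11.55, 11.73 and 10.99, and the fifth lower by a difference of -0.29. ARHGDIA was 1.5-fold lower by 2 of 4 probe sets, at 8.99, 8.70 and 7.99 by one of them, while its brighter pair differed by -0.28 and -0.20. All ARHGDIA probe sets are of the _x_at or _s_at class. Thus every measured probe set of these 3 genes was lower on collagenI, by unequal amounts.

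BTG1, an antiproliferative gene, read 7.96 in MP2-mock cells, 9.09 on plastic and 7.80 on collagenI, and 8.15, 9.37 and 8.31 by its other measured probe set. ITPRID2, which encodes a protein that binds inositol trisphosphate receptors, read 8.86, 10.07 and 9.05 and 7.10, 8.79 and 7.59, and was at least 1.81-fold lower by a further probe set at the floor on collagenI. LHFPL6, a tetraspan membrane protein, read 4.15, 6.76 and 4.63 by one probe set and 4.68, 5.50 and 4.68 by the other, differences of -2.12 and -0.82. For these 3 genes the plastic array was high, and the collagenI array differed from MP2-mock by at most 0.50. OSBPL3, an oxysterol-binding protein, was lower by a smaller amount, at 8.16, 8.69 and 7.96 and at 8.65, 8.97 and 8.30.

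**Figure D3:**
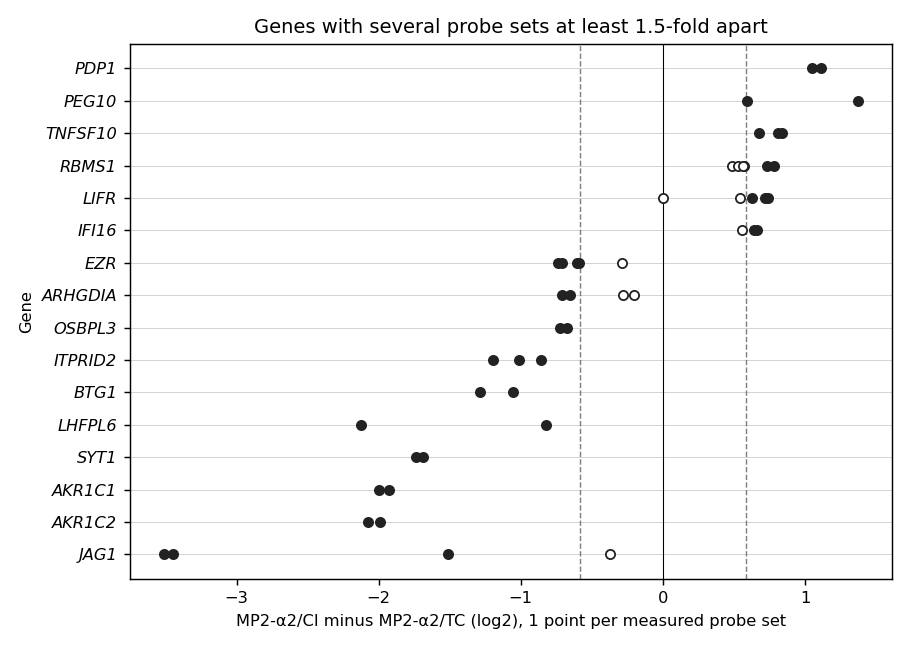
Log2 difference of MP2-α2/CI minus MP2-α2/TC (x axis) for the 6 higher and 10 lower genes (y axis) with several probe sets at least 1.5-fold apart, 1 point per measured probe set, filled where it passed 1.5-fold (dashed lines). LIFR is the gene with a probe set at exactly 0, and no point lies on the opposite side of 0 from the other probe sets of its gene.

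KANK4, COXFA4L3 and CCN2 were lower by a single probe set each. KANK4, a scaffold protein of the KANK family, read 6.64 in MP2-mock cells, 7.79 on plastic and 5.34 on collagenI, and was 5.48-fold lower on collagenI. COXFA4L3, a mitochondrial protein gene, read 6.55, 6.65 and 4.81. CCN2, the matricellular connective tissue growth factor and a target of YAP/TEAD, read 3.02, 4.37 and 3.01, a difference of -1.36. Its level on collagenI differed from MP2-mock by -0.01, and with the floor raised to 4 the difference between substrates was -0.37.

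On the higher side, FOXQ1, a forkhead transcription factor associated with the mesenchymal state, had the largest difference. It read 8.80 in MP2-mock cells, 5.43 on plastic and 7.65 on collagenI, 4.66-fold higher on collagenI than on plastic, by its only probe set. The level on collagenI lay between plastic and MP2-mock. Other genes of the mesenchymal list were close on both arrays: of 9 measured, none besides FOXQ1 was 1.5-fold apart and the median was 0. VIM, or vimentin, read 15.48 and 15.50, and ZEB1, a repressor of E-cadherin, was identical at 10.13. PTPRZ1, a receptor tyrosine phosphatase, lay at the minimum in MP2-mock and MP2-α2/TC cells and at 4.26 in MP2-α2/CI cells, at least 4.02-fold higher, a difference of 0.26 with the floor raised to 4.

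SGCE, PEG10 and PPP1R9A, which follow each other on chromosome 7, were all higher on collagenI. SGCE, the imprinted ε-sarcoglycan gene, read 6.17 in MP2-mock cells, 3.82 on plastic and 5.20 on collagenI. PEG10, an imprinted gene of retrotransposon origin, read 6.49, 3.75 and 5.12 by one probe set and 7.21, 5.07 and 5.66 by the other, differences of 1.37 and 0.59. For both genes the plastic array was lowest and MP2-mock highest. PPP1R9A, or neurabin, an actin-binding protein, was higher by 0.65 at 3.57, 3.57 and 4.22, by 0.37 at 6.63, 6.82 and 7.19, and by 0.05 by the third measured probe set.

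IFI16 and AIM2, adjacent genes on chromosome 1 for sensors of foreign DNA, formed a further pair. IFI16 read 8.77 in MP2-mock cells, 9.08 on plastic and 9.73 on collagenI by its brightest probe set, and its 3 probe sets were higher by 0.56 to 0.66. AIM2 read 6.98, 8.38 and 9.09. In all, 117 genes with a probe set 1.5-fold apart were placed in gene order, and 8 pairs lay within 3 places of each other. Each of these pairs, in the AKR1C, KLK, SGCE and IFI16 groups, had the same direction. Pairs within the KLK and SGCE groups share genes. No rate of such pairs over all measured genes was taken, so they are given as a description only.

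PDP1, TNFSF10, LIFR and RBMS1 were the other genes with several higher probe sets. PDP1, a phosphatase that activates pyruvate dehydrogenase, read 7.85 in MP2-mock cells, 7.33 on plastic and 8.39 on collagenI and 4.72, 4.11 and 5.22 by its other probe set, differences of 1.05 and 1.11. TNFSF10, the death ligand TRAIL, was 1.5-fold higher by all 3 probe sets, with the brightest at 5.85, 6.80 and 7.64. LIFR, the receptor for leukemia inhibitory factor, was 1.5-fold higher by 3 of 5 probe sets, with the brightest at 9.82, 9.90 and 10.64, and identical by 1 probe set near the floor. By the values printed, these 3 genes were higher on collagenI than in MP2-mock cells too. RBMS1, an RNA-binding protein gene, was higher by 0.49 to 0.78 over 6 probe sets, of which 2 passed 1.5-fold, and its MP2-mock levels were above both α2 arrays.

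Remaining increases by 1 probe set were less even among the probe sets of each gene. KMT2C, a histone methyltransferase, read 4.59 in MP2-mock cells, 3.94 on plastic and 5.49 on collagenI, a difference of 1.56, whereas its other measured probe sets differed by 0, 0.15 and 0.34. GLCCI1 was higher by 1.07 at 5.31, 4.05 and 5.12 and identical by a probe set close to the floor. SLC38A10 (3.33, 2.41 and 3.33) and SPATA6 (2.77, 2.77 and 3.69) were higher by 0.92 and 0.93 at low levels, and their other measured probe sets were identical or differed by -0.0108. MALAT1, a nuclear long noncoding RNA, was instead higher by all 12 of its probe sets, by 0.13 to 0.97, of which 1 passed 1.5-fold at 6.16, 5.87 and 6.84.

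Receptors for collagen and the proteins that link integrins to actin showed no 1.5-fold difference in RNA. ITGB1, the β1 partner of α2, was identical on both arrays by its 4 measured probe sets, at 13.61, 12.56, 12.08 and 2.30. For surface β1 protein, which arrays do not read, the study reports higher levels after repeated passage on collagenI. ITGA3, a laminin-binding integrin subunit, read 9.03 in MP2-mock cells, 8.92 on plastic and 8.86 on collagenI, and ITGA1 was not above the floor. DDR2, a receptor kinase for fibrillar collagen, read 10.64 on plastic and 10.82 on collagenI, and MRC2, an endocytic collagen receptor, 7.61 and 7.75. The 13 other integrin subunits measured differed by -0.13 to 0.14, and 32 focal adhesion genes by -0.32 to 0.36, both with a median of 0. PTK2, the focal adhesion kinase, was identical at 10.20, and ILK, the integrin-linked kinase, read 11.82 and 11.67.

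Matrix genes and proteases were equally close apart from a few. Of 19 measured collagen and basement membrane genes, COL13A1, a transmembrane collagen, was the one that passed 1.5-fold. It read 7.82 in MP2-mock cells, 8.55 on plastic and 7.65 on collagenI, while its other probe sets differed by -0.23 and 0. Of 17 other matrix genes, CCN2 and MATN2, a filamentous matrilin (4.50, 5.36 and 4.71), were lower. Metalloproteinases and their inhibitors, with 18 genes measured, differed by -0.197 to 0.197, and no serine protease or serpin of the 11 measured outside the kallikreins passed 1.5-fold.

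Among targets of the pathways that integrins feed, single genes were apart and the lists were not. YAP/TEAD targets had a median of -0.0243 over 18 genes, with CCN2 lower and 11 of 18 below 0. CCN1, its relative, read 11.10 in MP2-mock cells, 11.31 on plastic and 10.76 on collagenI, a difference of -0.56, and differed less by its other probe set (10.26, 10.49 and 10.35). SRF and actin genes had a median of 0 over 21 genes, with CNN3, a calponin, at 3.69, 4.72 and 3.94. TAGLN, a smooth muscle actin-binding protein, read 5.16, 5.99 and 4.95 by 1 probe set, 5.56, 6.11 and 5.56 by another, and 2.93 on all 3 arrays by the last. In the TGF-β and BMP list of 22 genes, the ligand TGFB3 (6.57, 6.14 and 5.15) and BAMBI, a decoy receptor (2.33, 3.12 and 2.33), were lower.

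ERK output genes had a median of 0.0197 over 25 genes, and none passed 1.5-fold by its brightest probe set. DUSP6, an ERK phosphatase, was higher by 0.45 to 0.61 over its 3 probe sets, with the brightest at 5.72 in MP2-mock cells, 7.34 on plastic and 7.90 on collagenI. FOSL1, an AP-1 subunit, lay the other way, at 11.07, 10.93 and 10.36. Among 24 NF-kB targets and cytokines, RELB, an NF-kB subunit, was higher at 6.71, 4.47 and 5.18. CXCL2, a neutrophil chemokine, differed by 0.57. Interferon-stimulated genes had the highest median of the 37 lists, 0.115, with 19 of 31 above 0, 2 below and 10 identical, and no member passed 1.5-fold. The poly-A spikes had a median difference of 0.113, and their part in this shift was not tested.

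In metabolism, HKDC1, a hexokinase-like gene, was higher at 10.54 in MP2-mock cells, 6.78 on plastic and 7.43 on collagenI, and its other measured probe sets were identical or differed by 0.0118. ADM, the hypoxia-inducible peptide adrenomedullin, was lower at 7.29, 8.27 and 7.33. No other gene of the 34 measured for glycolysis and hypoxia passed 1.5-fold. Cholesterol synthesis (18 genes, median 0.0639), G1/S and replication (35 genes, median -0.0201, with 23 below 0) and ribosomal proteins (21 genes, -0.0344 to 0.0700) had no member apart by its brightest probe set. CDK6, a kinase of cell cycle entry, was lower by 1 measured probe set (6.72, 4.06 and 2.85) and identical on both α2 arrays by the other (4.20). In all, 26 of 37 lists had no member 1.5-fold apart by its brightest probe set, and 20 had none by any probe set. Across the lists, medians ran from -0.0243 to 0.115, against 0 over all genes. By brightest probe set, 0.205% of all genes were 1.5-fold higher and 0.308% lower.

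**Figure D4:**
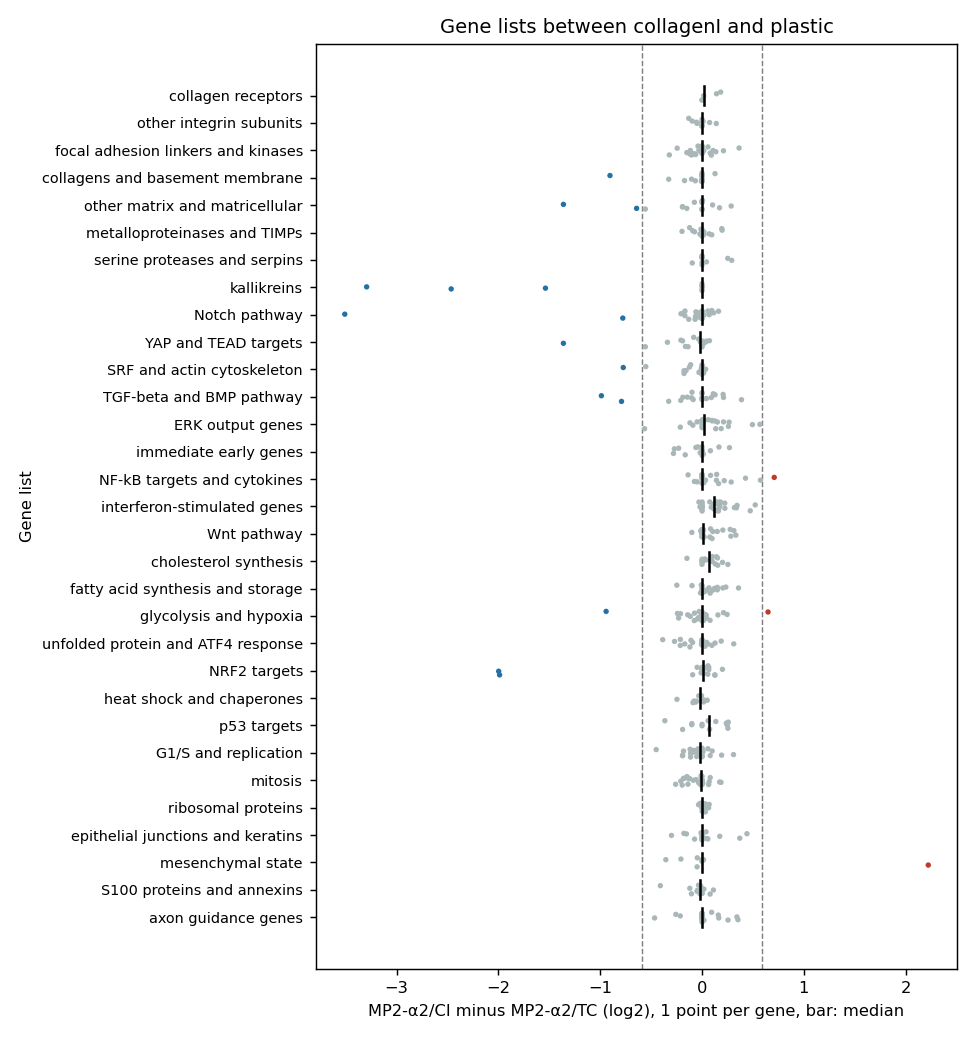
Log2 difference of MP2-α2/CI minus MP2-α2/TC (x axis) for the measured genes of 31 lists (y axis), 1 point per gene by its brightest probe set, with a bar at the median of each list and dashed lines at 1.5-fold. Medians lie near 0, and the points beyond the lines are single genes such as JAG1, the 3 kallikreins, AKR1C1, AKR1C2 and FOXQ1.

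MP2-mock cells were not nearer to 1 of the α2 arrays throughout. Of the 87 higher probe sets, the MP2-mock level was nearer to collagenI for 39 and nearer to plastic for 48. Of the 82 lower probe sets, it was nearer to collagenI for 34 and nearer to plastic for 48. It lay between the α2 arrays or equal to one of them for 41 of the higher and 51 of the lower probe sets. The named genes fall on both sides, with KLK5, CCN2 and BTG1 near MP2-mock on collagenI and AKR1C1, AKR1C2 and SYT1 near it on plastic.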

How the data were processed

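Each array came as a column of normalized values deposited by the authors and read here as log2 from their range, as no source used here names the log base. GCRMA and MAS5 stand in the submitters' processing notes, with neither role nor version. The arrays of MP2-α2/CI, MP2-α2/TC and MP2-mock cells had the same minimum and were treated as 1 normalization set. Of 54675 probe sets, 62 controls were left out. The platform annotation gave 1 symbol for 41091, several for 1801 and none for 11721, and 41037 symbols were brought up to date by gene identifier through the RefSeq table of GRCh38.p14. Genes were named only from probe sets with 1 symbol. Background was taken from 107 odorant receptor probe sets, whose 95th percentile on each array was its floor, and lower values were raised to it, so that a difference against it is a lower bound. The number of arrays limits the precision.

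Differences were taken with Python 3.11.15, numpy 2.4.6 and pandas 2.3.3, and the code was tested on simulated data. Of each gene, the brightest probe set (highest mean of both arrays) stood for it in 37 lists of 922 genes, of which 843 were on the arrays and 650 measured. Named were genes with several probe sets 1.5-fold apart, the 10 largest changes each way, the integrins and kallikreins the study describes, and list members 1.5-fold apart, 43 genes in all. Other genes named, such as AIM2, PPP1R9A, DUSP6, TAGLN, CDK6 and HES1, were chosen after their values were seen. The members and lists were chosen with earlier results of these data known. Alternatives were no floor, a floor of 4, a floor on both arrays, quantile normalization, centring, probe sets without _x_at and _s_at, and thresholds of 2-fold and 3-fold.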

Additional observations from a re-analysis of the deposited data

How the results depend on the processing

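No paired analysis was possible because each population had 1 array, and no replicate could be left out. The 87 higher and 82 lower probe sets became 10 and 31 at 2-fold and 2 and 13 at 3-fold. Genes with several such probe sets, 6 higher and 10 lower, became 1 and 6 at 2-fold and 0 and 4 at 3-fold. Without _x_at and _s_at probe sets, the lower probe sets numbered 36, and the genes 2 higher and 1 lower, which follows in part from fewer probe sets being compared. Higher probe sets made up 51.5% of those 1.5-fold apart, 64.7% without _x_at and _s_at probe sets, 24.4% at 2-fold and 13.3% at 3-fold. With no floor, a floor of 4, a floor on both arrays, quantile normalization or centring, all 4 counts stayed within 1.5 times and the higher share ran from 49.1% to 52.8%. Of 61 probe sets of named genes 1.5-fold apart, none changed direction under these 5 settings where it was still measured. These settings could hardly reverse a difference of that size, so this is no check of the results. The probe sets were also chosen after seeing the data. With a floor of 4, CCN2, PTPRZ1 and KLK7 came to -0.37, 0.26 and -0.08, below 1.5-fold. After quantile normalization a probe set each of EZR (-0.58) and PEG10 (0.58) did so, and after centring that of PEG10 (0.58). Quantile normalization shifted the median by -0.00403 and centring by -0.0129. All 37 list medians stayed within 0.05 when each gene was given the median of its probe sets or arrays were quantile normalized. Low signal limits KLK5, KLK7, CCN2, BAMBI and PTPRZ1, which lay near the floor on at least 1 α2 array.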

Other observations

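Genes in which every measured probe set lay on one side were sought by a rule set after the values were seen: at least 3 measured probe sets, all higher or all lower in MP2-α2/CI cells, and a median difference of at least 1.25-fold. Of 3117 genes with at least 3 measured probe sets, 12 were higher and 12 were lower, and no test was made. Among the higher genes not yet described, NAMPT, the rate-limiting enzyme of NAD salvage, was higher by 0.33 to 0.82 over 4 probe sets, with the brightest at 10.36 in MP2-mock cells, 10.87 on plastic and 11.33 on collagenI. NR5A2, an orphan nuclear receptor, was higher by 0.18 to 0.89 over 4, with the brightest at 7.24, 9.13 and 9.50. CTSC, a lysosomal cysteine protease, was higher by 0.12 to 0.70 over 4, with the brightest at 12.62, 8.37 and 8.88. For CTSC both α2 arrays were far below MP2-mock, whereas for NAMPT and NR5A2 they were above it. GBP1, an interferon-induced GTPase, BBX and SLC4A7, a bicarbonate transporter, completed the group, with medians of 0.37 each.

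On the lower side, ETS1, a transcription factor of invasion and vessel growth, was lower by 0.07 to 0.64 over 3 probe sets, with the brightest at 8.61 in MP2-mock cells, 8.61 on plastic and 8.54 on collagenI. UGCG, the first enzyme of glycosphingolipid synthesis, had a median difference of -0.43, and RRAS2, a Ras-related GTPase, of -0.38. PIP5K1A, which makes the phosphoinositide that ezrin binds, and FLII, an actin-remodelling protein, had medians of -0.34 and -0.33. CALB2, or calretinin, a calcium-binding protein, was chosen after its values were seen: its probe set read 13.31, 13.24 and 11.79, a 2.73-fold lower level on collagenI than on plastic.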
